A study of Mus musculus with 6 samples.

Results

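Molecular chaperones and proteasome subunits were followed across 3 culture states of mouse embryonic stem cells. The genes were taken by name: every gene row whose symbol starts with Hspa, Hspb, Hspd, Hspe, Hsph, Hsp90, Dnaj, Psma, Psmb, Psmc or Psmd, together with Tcp1 and the Cct2 to Cct8 genes of the TRiC chaperonin, pseudogenes left out. This gave 122 of the 19532 gene rows, of which 82 are chaperones or their partners and 40 carry a proteasome name. By role they fall into 14 HSP70 and HSP110 proteins, 3 HSP90 proteins, 8 small heat shock proteins, 44 J-domain proteins (4 of class A, 12 of class B and 28 of class C), the 2 subunits of the mitochondrial chaperonin, 9 TRiC genes, 8 alpha and 11 beta subunits of the 20S proteasome core, 6 ATPases and 14 further subunits or assembly factors of the 19S cap. The other 3 match by name alone or as partners: Psmc3ip is a meiotic recombination factor, Hspbp1 binds HSP70 and Hspbap1 binds HSPB1. Every gene of the set had at least 1 molecule counted, and 112 (73 chaperones and 39 proteasome names) passed the filter on low counts and were tested.

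Chaperones hold unfolded proteins apart and help them fold. Small heat shock proteins bind clients without ATP, J-domain proteins deliver clients to HSP70 and start its ATP cycle, HSP110 proteins reset that cycle by nucleotide exchange, HSP90 finishes selected clients such as kinases, and the barrel-shaped chaperonins TRiC (cytosol) and HSPD1 with HSPE1 (mitochondria) fold proteins in a closed chamber. Proteins marked with ubiquitin are unfolded by the ATPases of the 19S cap and cut inside the 20S core by its beta subunits. In immunoproteasomes, best known from immune cells and from cells exposed to interferon, inducible beta subunits take the place of the catalytic ones.

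Single cells of the established mouse embryonic stem cell lines R1 and IB10 were sorted into plates and their transcripts counted with SORT-seq, which reads the 3′ end of each transcript with a unique molecular identifier (UMI). Each line gave 1 library per condition, so there were 6 libraries of 188 wells. All cells grew in serum-free N2B27 medium with LIF on gelatin and serum-coated plastic. Rosette_LIM cells were kept with PD325901 at 0.1 µM, which blocks MEK, and IWP2 at 2 µM, which blocks the release of WNT ligands, for 5 passages in IB10 and 6 in R1. Primed_4d cells received IWP2 at 2 µM, Activin A at 20 ng/ml and FGF2 at 12 ng/ml over 4 days, with no MEK inhibitor. LIF_2i cells, against which the others were set, had 0.1 µM PD325901 and 3 µM CHIR99021, a GSK3 inhibitor that activates WNT signalling. Passage number differed with condition and cannot be told apart from it: 33 (IB10) and 28 (R1) in rosette_LIM, against 28 and 24 in primed_4d and in LIF_2i. Each line is 1 stock of cells, and nothing in the labels gives separate cultures within a line.

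The libraries held 4614580 to 7688723 UMIs. The R1 primed_4d library had 84 wells under 6000 UMIs, against 4 to 38 in the others, and 2 wells of the R1 LIF_2i library held over 10 times its median well; results without such wells are given where they differ. The naive markers Klf4, Esrrb, Tfcp2l1, Tbx3, Nr0b1 and Zfp42 together came to 2305 and 2484 CPM in rosette_LIM, 377 and 261 in primed_4d and 2696 and 2470.1 in LIF_2i (IB10, then R1). The primed markers Fgf5, Pou3f1, Otx2, Dnmt3b and Sox3 came to 83.1 and 60.9 CPM in rosette_LIM, 1144 and 1162 in primed_4d and 101 and 88.5 in LIF_2i. In rosette_LIM against LIF_2i, Otx2 and Pou3f1 of the primed markers rose and Dnmt3b fell, and of the naive markers Tfcp2l1 fell. Marker sums of feeder fibroblasts ranged over 160 to 313 CPM, nearly all of it Vim, and those of primitive endoderm over 78.5 to 413 CPM, with the lowest values of both in primed_4d.

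Levels are a gene's counts scaled to the gene counts of its library (CPM, with TMM factors), and each pair of values gives the IB10 library first and the R1 library second. Because 1 UMI is counted per transcript 3′ end, no length enters. Tests are edgeR's quasi-likelihood test on counts summed over wells, with condition and line in the model, and log2 fold changes are ± SE. In bulk sums of this kind, fewer cells with a transcript and less transcript per cell cannot be told apart; the wells are used for that where counts allow.

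The whole set was a steady part of the transcriptome. It took 3.53% of all gene counts in both rosette_LIM libraries, 3.398% (IB10) and 3.399% (R1) in primed_4d, and 3.62% and 3.59% in LIF_2i. Proteasome names took 0.852% and 0.888% in rosette_LIM, 0.854% and 0.866% in primed_4d, and 0.868% and 0.865% in LIF_2i. Within this near-constant sum, those of single roles differed more. Small heat shock proteins together came to 1360.4 and 1450.5 CPM in rosette_LIM, 390.1 and 306 in primed_4d and 1208 and 1403 in LIF_2i, while TRiC genes came to 4565 and 4528 CPM in rosette_LIM, 5095 and 5510.2 in primed_4d and 4692 and 4494 in LIF_2i. In both sums the primed_4d libraries stood apart from the other 4. Nearly all of the first sum was Hspb1, with 1312 and 1410 CPM in rosette_LIM, 357 and 275 in primed_4d and 1146 and 1338 in LIF_2i.

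**Figure D1:**
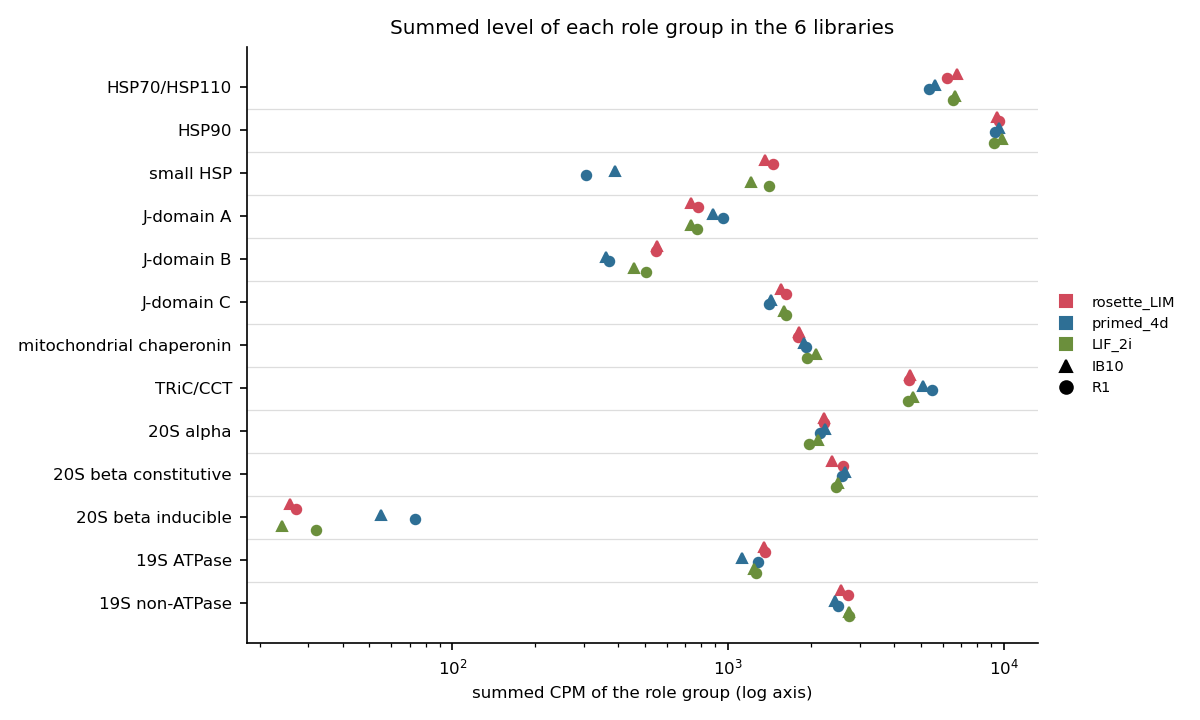
Summed CPM of each role group (log axis) in the 6 libraries, with rosette_LIM in red, primed_4d in blue and LIF_2i in green; triangles are IB10 and circles R1, and there is no error bar because each point is 1 library. Small heat shock proteins were lowest (390.1 and 306 CPM) and inducible beta subunits highest (55.05 and 73.4 CPM) in primed_4d, and HSP90 stayed between 9197 and 9858 CPM.

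Counted gene by gene, rosette_LIM cells differed from LIF_2i cells at 1 of the 112 genes tested, Hspb8, which was lower; over all 12098 genes tested the share called was 5.55% (3.2% higher and 2.35% lower). An unadjusted p under 0.05 was found at 12 of the 112. The share of all genes at that unadjusted threshold was not counted, so the 12 are not read as a result about the set. Primed_4d cells differed from LIF_2i cells at 33 genes, 14 higher and 19 lower, which is 29.5% of the set beside 37.9% of all genes (18.3% higher and 19.6% lower). Rosette_LIM cells differed from primed_4d cells at 29 genes, 18 higher and 11 lower, which is 25.9% beside 36.1% of all genes (19% higher and 17.2% lower). Any 2 of these comparisons share a pair of libraries, so their calls are not independent. The median log2 fold change of the set was 0.00 in rosette_LIM against LIF_2i (0.00 over all genes), 0.01 in primed_4d against LIF_2i (-0.01) and 0.03 in rosette_LIM against primed_4d (0.00). Every one of these 1, 33 and 29 calls had the same direction in IB10 and in R1 taken alone. The calls were made on these same libraries, which favours such agreement, so it is no separate support.

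**Figure D2:**
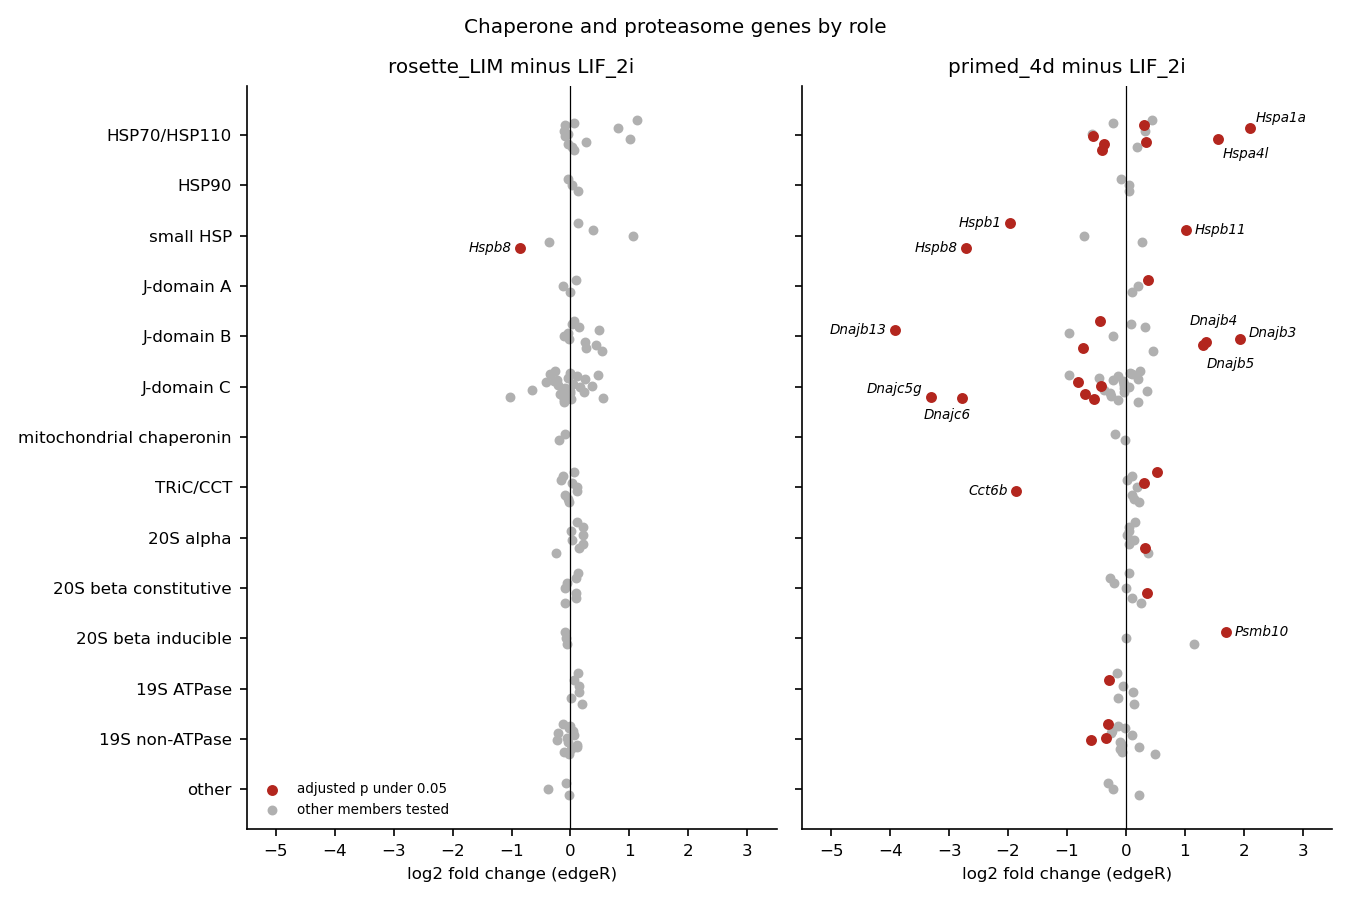
Log2 fold change (edgeR, x axis) of each tested gene by role (y axis), rosette_LIM minus LIF_2i at left and primed_4d minus LIF_2i at right; red marks an adjusted p under 0.05 and grey all others. The left panel has 1 red point (Hspb8, -0.85) and the right panel 33; the value of Dnajb13 rests on 2 UMIs in primed_4d and depends on edgeR's prior count.

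Among the small heat shock genes tested, Hspb1 and Hspb8 were called lower in primed_4d than in LIF_2i, and Hspb11 was called higher. Hspb1 (HSP27 in human, HSP25 in mouse; chromosome 5, GRCm38 positions 135887919 to 135889563), which binds unfolded clients and actin filaments, had 1312 and 1409.8 CPM in rosette_LIM, 357 and 275 CPM in primed_4d and 1146 and 1338 CPM in LIF_2i. The primed_4d libraries lay far under the other 4, and rosette_LIM overlapped LIF_2i. Hspb1 was 3.93-fold lower in primed_4d than in LIF_2i (log2 fold change -1.98 ± 0.13, edgeR adjusted p = 3.82e-08) and 4.31-fold higher in rosette_LIM than in primed_4d (2.11 ± 0.13, adjusted p = 2.88e-08). Between rosette_LIM and LIF_2i it differed by 0.13 ± 0.12 (adjusted p = 0.621).

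Hspb8, which acts with the co-chaperone BAG3 in the removal of damaged proteins by autophagy, had 30.02 and 21.01 CPM in rosette_LIM, 5.67 and 8.33 CPM in primed_4d and 43.9 and 47.8 CPM in LIF_2i. The 3 conditions did not overlap, with rosette_LIM in between. The fall in primed_4d against LIF_2i was 6.59-fold (log2 fold change -2.72 ± 0.24, edgeR adjusted p = 5.38e-07), and Hspb8 was 1.87 ± 0.25 higher in rosette_LIM than in primed_4d (adjusted p = 4.42e-05). Against LIF_2i, rosette_LIM was lower by 1.81-fold (-0.85 ± 0.20, adjusted p = 0.0187), a call that was lost without the R1 rosette_LIM, R1 LIF_2i or IB10 LIF_2i library, without the line term and with DESeq2, highest adjusted p = 0.402. Bag3, the partner of HSPB8 and itself no gene of the set, had 43.9 and 56.3 CPM in rosette_LIM, 23.1 and 30.1 in primed_4d and 56.96 and 80.2 in LIF_2i, and fell in primed_4d against LIF_2i by 1.36 ± 0.14 on the log2 scale (adjusted p = 4.19e-06).

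The other 3 small heat shock genes tested were low. Hspb11, a subunit of intraflagellar transport also called IFT25 rather than a classical chaperone, had 9.55 and 7.81 CPM in rosette_LIM, 12.5 and 14.5 in primed_4d and 6.66 and 6.57 in LIF_2i. It was higher in primed_4d than in LIF_2i (1.03 ± 0.26, edgeR adjusted p = 0.00619), a call lost without the R1 primed_4d, R1 LIF_2i or IB10 LIF_2i library and with DESeq2, highest adjusted p = 0.0815. Hspb2 had 2.34 and 3.99 CPM in rosette_LIM, 0.568 and 1.28 in primed_4d and 1.79 and 1.14 in LIF_2i, and was higher in rosette_LIM than in primed_4d (1.78 ± 0.62, adjusted p = 0.0367; lost without the R1 rosette_LIM, R1 primed_4d, IB10 primed_4d, R1 LIF_2i or IB10 LIF_2i library and with DESeq2, highest adjusted p = 0.312). Hspb2 lies against Cryab on the opposite strand, and Cryab, another small heat shock gene that was itself lower in primed_4d than in LIF_2i and than in rosette_LIM, had 7.798 and 10.4 CPM in rosette_LIM, 0.757 and 2.35 in primed_4d and 8.32 and 7.995 in LIF_2i. The strand used for counting is not stated, so reads of such a pair cannot be told apart. Hspb6 passed no threshold (5.85 and 7.64 CPM in rosette_LIM, 13.998 and 7.26 in primed_4d, 8.45 and 9.14 in LIF_2i).

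In single wells of at least 6000 UMIs the fall of Hspb1 ran through most wells. The median well had 1268 and 1345 CPM in rosette_LIM, 283 and 186 CPM in primed_4d and 1123 and 1345 CPM in LIF_2i. The 95th percentile of primed_4d wells, 896 and 769 CPM, lay under the lower quartile of LIF_2i wells, 919 and 1159 CPM. Hspb1 counts were also more concentrated in primed_4d. The 10% of wells with most Hspb1 counts held 31.4 and 39.6% of them there. In rosette_LIM that share was 20.7 and 20.03%, and in LIF_2i 18.1 and 28.7%. These are shares of counts, so differences in well depth and counting noise at low levels enter them, and their part was not tested. For Hsp90ab1 the shares were 18.1 and 19.3% in rosette_LIM, 22.3 and 18.3% in primed_4d and 17.1 and 30.1% in LIF_2i. Dnajb6, at a median of 151 and 151 CPM in primed_4d wells, had shares of 27.6 and 23.7% there. Its shares were 21.4 and 21.7% in rosette_LIM and 19.3 and 31.02% in LIF_2i. Across wells of 1 library, which share preparation and are no replicates, the rank correlation of Hspb1 with the naive marker sum was 0.492 and 0.32 in primed_4d (170 and 104 wells). The same correlation was -0.004 and 0.18 in rosette_LIM (150 and 179 wells) and 0.0255 and 0.0592 in LIF_2i (184 and 160 wells). In primed_4d, the well's total had a rank correlation of -0.0359 and -0.0044 with Hspb1 and of -0.2445 and -0.386 with the naive marker sum. The part of depth in the correlation of Hspb1 with the naive markers was not tested.

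**Figure D3:**
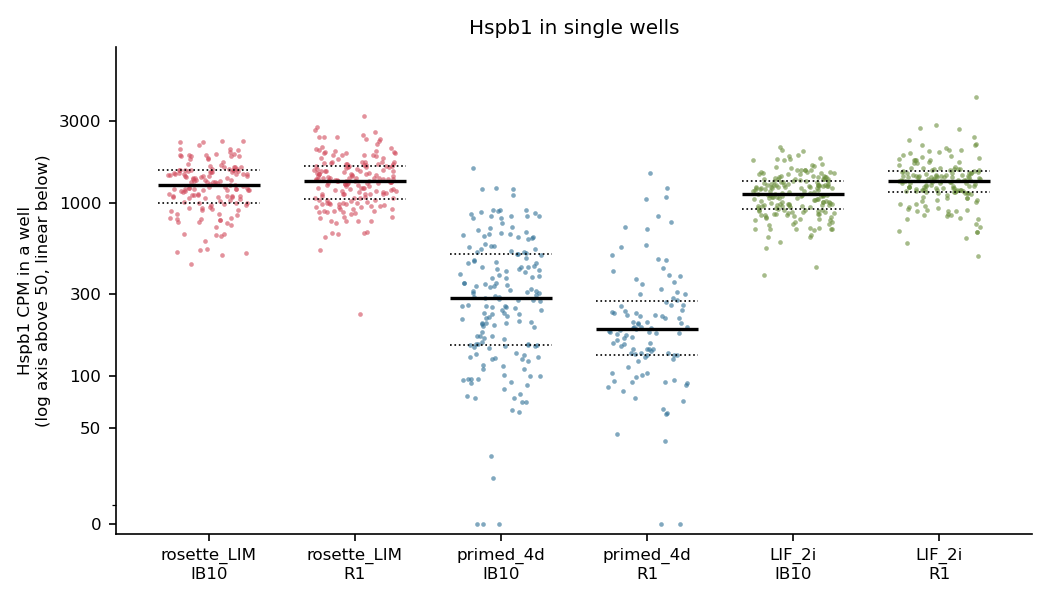
Hspb1 CPM in each well of at least 6000 UMIs (y axis, logarithmic above 50 and linear below) for the 6 libraries; the solid line is the median and dotted lines are the quartiles. Medians of primed_4d wells were 283 and 186 CPM, against 1268 and 1345 CPM in rosette_LIM and 1123 and 1345 CPM in LIF_2i (IB10, then R1).

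Promoter windows are printed for Hspb1, Hspb8, Dnajb6 and Hspa1a, chosen among genes that hold a heat-shock-type element. Heat-inducible chaperones are known to share this sequence. Windows without the element are not printed. RefSeq promoter windows (GRCm38.p6, 250 bases before to 50 after the annotated start, 300 in all) matched 100 of the 122 genes. The element GAANNTTC, which reads the same on either strand, stood in the windows of 17 of these (17%), beside 9.04% of all 27025 genes of the table; 7 of 8 heat-inducible genes with a window held it. Dnajb1 was the heat-inducible gene whose windows lacked it. The element stood in 5 of the 16 genes lower in primed_4d than in LIF_2i and in 4 of the 14 higher. In Hspb1 (chr5:135887669-135887968, plus strand) it begins 117 and 97 bases before the start, in Dnajb6 (chr5:29735648-29735947, plus strand) 46 bases before, and in Hspa1a (chr17:34972107-34972406, minus strand) 104 bases before. In Hspb8 (chr5:116422815-116423114, minus strand) it begins 2 bases after the start. Capitals mark the element in the windows, written 5′ to 3′ on the gene's strand.
Hspb1: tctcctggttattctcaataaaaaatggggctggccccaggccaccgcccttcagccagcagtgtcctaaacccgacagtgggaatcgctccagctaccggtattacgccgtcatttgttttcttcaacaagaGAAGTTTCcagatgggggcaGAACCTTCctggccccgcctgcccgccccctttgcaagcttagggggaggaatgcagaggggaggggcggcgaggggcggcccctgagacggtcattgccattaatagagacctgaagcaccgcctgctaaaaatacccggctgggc
Hspb8: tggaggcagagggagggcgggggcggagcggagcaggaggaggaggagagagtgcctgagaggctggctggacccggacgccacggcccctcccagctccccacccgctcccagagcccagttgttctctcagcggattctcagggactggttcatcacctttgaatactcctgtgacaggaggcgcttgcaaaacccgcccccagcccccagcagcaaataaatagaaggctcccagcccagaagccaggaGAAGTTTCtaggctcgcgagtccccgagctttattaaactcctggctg
Dnajb6: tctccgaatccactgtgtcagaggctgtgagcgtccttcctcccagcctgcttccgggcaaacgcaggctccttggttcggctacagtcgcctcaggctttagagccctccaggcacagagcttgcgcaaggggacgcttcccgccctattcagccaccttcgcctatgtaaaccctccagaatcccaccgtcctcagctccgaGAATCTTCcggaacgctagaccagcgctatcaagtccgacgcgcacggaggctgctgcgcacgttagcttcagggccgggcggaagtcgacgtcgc
Hspa1a: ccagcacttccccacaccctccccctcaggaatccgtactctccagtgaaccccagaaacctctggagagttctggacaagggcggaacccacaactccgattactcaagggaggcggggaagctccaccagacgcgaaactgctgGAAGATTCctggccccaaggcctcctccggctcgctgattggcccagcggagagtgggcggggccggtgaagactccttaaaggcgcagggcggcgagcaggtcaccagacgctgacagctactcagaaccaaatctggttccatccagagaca

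Of 12 HSP70 and HSP110 genes tested, 4 rose and 3 fell in primed_4d against LIF_2i, and 3 rose and 1 fell in rosette_LIM against primed_4d. Over all genes tested, 18.3% were higher and 19.6% lower in the first comparison, and 19% higher and 17.2% lower in the second. Hspa8, the constitutive cytosolic HSC70 and the main HSP70 of these cells, had 4820.05 and 4296 CPM in rosette_LIM, 3827 and 3409 CPM in primed_4d and 4749 and 4629 CPM in LIF_2i. The primed_4d libraries were the lowest pair. The difference was small, 1.3-fold against LIF_2i (log2 fold change -0.38 ± 0.09, edgeR adjusted p = 0.00459) and 0.33 ± 0.09 for rosette_LIM against primed_4d (adjusted p = 0.0103). The first call was lost without the R1 LIF_2i library, highest adjusted p = 0.114, the second without the R1 primed_4d library, highest adjusted p = 0.0607.

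The nucleotide exchange factors of the HSP110 type fell with it. Hspa4 had 607 and 644 CPM in rosette_LIM, 467 and 441 in primed_4d and 679 and 657 in LIF_2i, a fall of 1.47-fold in primed_4d (log2 fold change -0.56 ± 0.10, edgeR adjusted p = 0.000521) that held in all 15 alternatives. Hsph1 (HSP105), which is also heat-inducible, had 182 and 162 CPM in rosette_LIM, 123 and 125 in primed_4d and 172 and 156 in LIF_2i. It fell in primed_4d by 0.40 on the log2 scale (adjusted p = 0.0118) and was higher in rosette_LIM than in primed_4d (0.47 ± 0.11, adjusted p = 0.0051). The first call was lost without the IB10 primed_4d, R1 LIF_2i or IB10 LIF_2i library and with DESeq2, highest adjusted p = 0.168, the second without the IB10 primed_4d library, highest adjusted p = 0.0656. Their relative Hspa4l moved the other way at a far lower level, with 5.65 and 3.65 CPM in rosette_LIM, 7.38 and 6.19 in primed_4d and 2.56 and 1.999 in LIF_2i. It was higher in primed_4d than in LIF_2i (1.57 ± 0.38, adjusted p = 0.00438; lost without the IB10 LIF_2i library, highest adjusted p = 0.0711), and for rosette_LIM against LIF_2i the estimate was 1.01 ± 0.39 (adjusted p = 0.163).

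Hspa5 (BiP), the HSP70 of the endoplasmic reticulum, had 490.3 and 468 CPM in rosette_LIM, 436 and 578 in primed_4d and 370.3 and 430.5 in LIF_2i. All 4 values outside LIF_2i exceeded those of LIF_2i, and primed_4d against LIF_2i gave 0.33 ± 0.12 (edgeR adjusted p = 0.0355), lost without the R1 primed_4d, R1 LIF_2i or IB10 LIF_2i library, without the line term and with DESeq2, highest adjusted p = 0.415. Hspa14, which works on ribosomes with the J-domain protein DNAJC2, had 149 and 142 CPM in rosette_LIM, 211 and 177 in primed_4d and 156 and 155 in LIF_2i. It was higher in primed_4d than in LIF_2i (0.31 ± 0.11, adjusted p = 0.0398; lost without the IB10 primed_4d, R1 LIF_2i or IB10 LIF_2i library, without the line term, with DESeq2, with no filter on low counts and without the 2 heaviest wells, highest adjusted p = 0.401), and lower in rosette_LIM than in primed_4d (-0.41 ± 0.11, adjusted p = 0.0112; lost without the IB10 primed_4d library, highest adjusted p = 0.129). Its partner Dnajc2 passed no threshold (193 and 186 CPM in rosette_LIM, 236 and 197 in primed_4d, 217 and 224 in LIF_2i). Mitochondrial Hspa9 had 503 and 488 CPM in rosette_LIM, 556 and 565 in primed_4d and 478 and 500.3 in LIF_2i, and its primed_4d difference of 0.20 ± 0.10 did not pass (adjusted p = 0.134).

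The stress-inducible pair Hspa1a and Hspa1b was low. Hspa1a had 10 and 4 UMIs in rosette_LIM, 9 and 24 in primed_4d and 5 and 6 in LIF_2i, which is 1.95 and 0.695 CPM in rosette_LIM, 1.702 and 5.12 in primed_4d and 0.64 and 0.857 in LIF_2i. The R1 primed_4d value stands above the rest, and 1 well held 54.2% of its UMIs. Hspa1a was called higher in primed_4d than in LIF_2i (2.11 ± 0.68, edgeR adjusted p = 0.0234), but the call was lost without the R1 primed_4d, R1 LIF_2i or IB10 LIF_2i library and with DESeq2, highest adjusted p = 0.538. Hspa1b had 5.85 and 8.33 CPM in rosette_LIM, 4.73 and 15.6 in primed_4d and 7.94 and 6.85 in LIF_2i, with no call. Over the 6 libraries the log2(CPM + 5) profile of Hspa1a was most like those of Cct5 (Pearson 0.94), Dnajc27 (0.92) and Dnajb7 (0.92), a description only. Dnajb7 had 1 UMI in all libraries together, in R1 primed_4d. The copies Hspa1a and Hspa1b are nearly identical in sequence, so how counts were split between them is uncertain. Hspa2, known from testis, had 5.85 and 7.29 CPM in rosette_LIM, 5.67 and 3.42 in primed_4d and 7.17 and 6.42 in LIF_2i, and neither it nor Hspa12a nor Hspa13 passed the threshold.

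**Figure D4:**
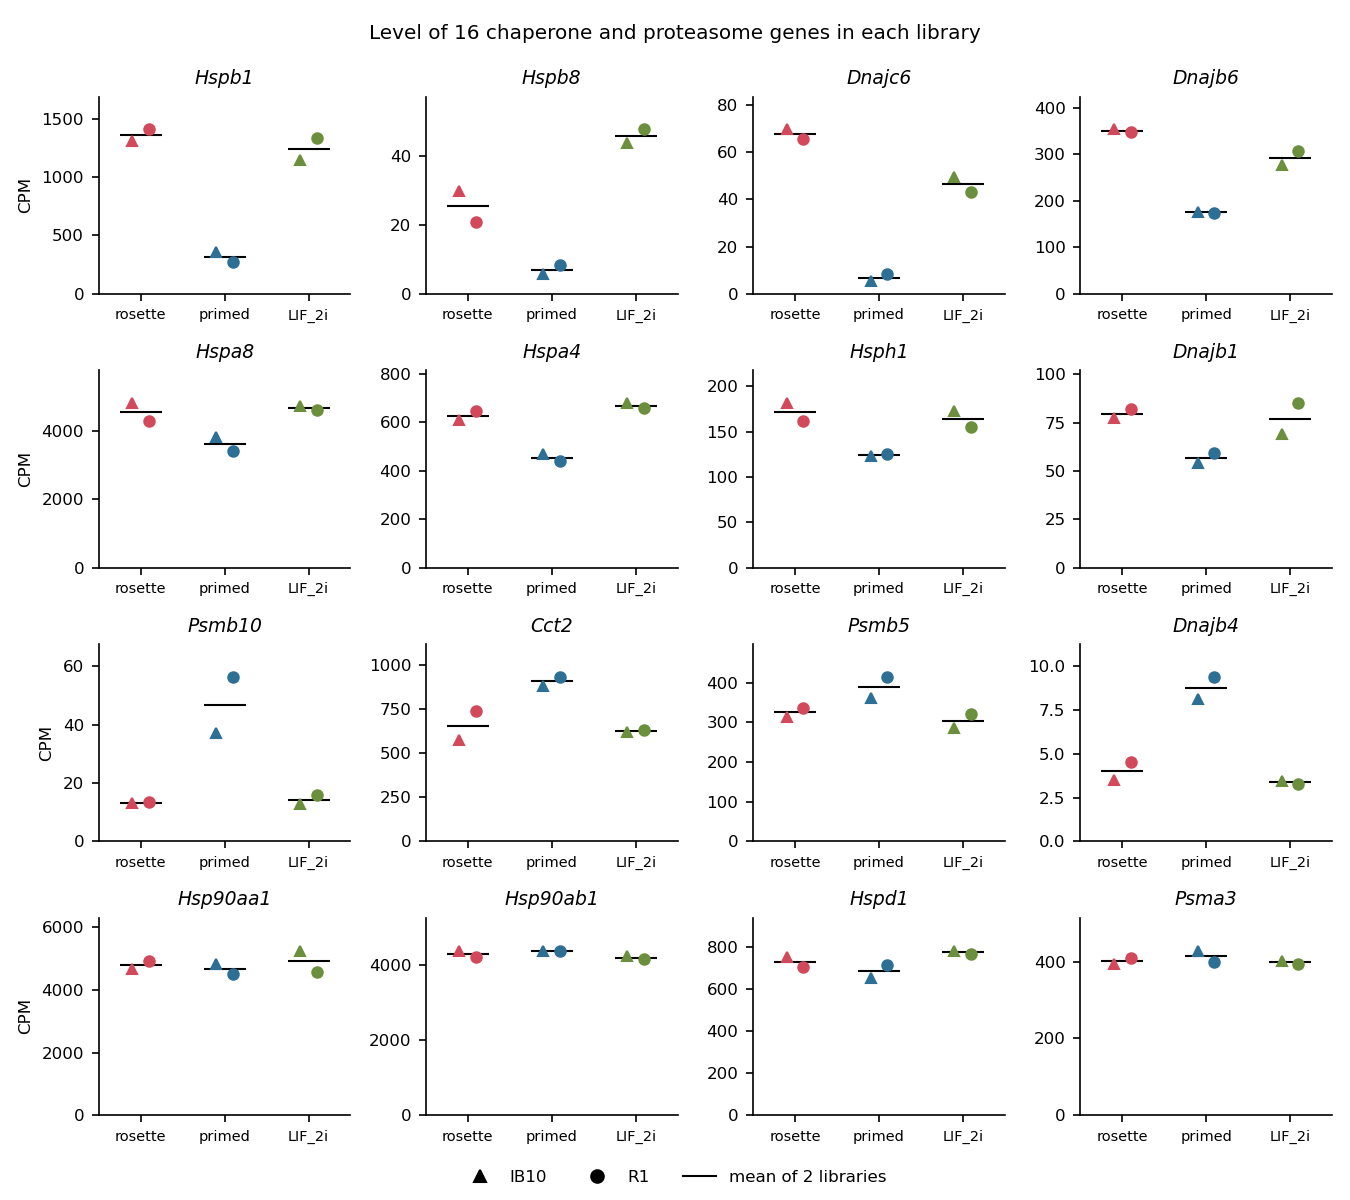
CPM (linear axes from 0) of 16 genes in rosette_LIM, primed_4d and LIF_2i; triangles are IB10, circles are R1 and the bar is the mean of 2 libraries. Hspb1, Hspb8, Dnajc6, Dnajb6, Hspa8, Hspa4, Hsph1 and Dnajb1 were lowest in primed_4d and Psmb10, Cct2, Psmb5 and Dnajb4 highest there, whereas Hsp90aa1, Hsp90ab1, Hspd1 and Psma3 passed no threshold.

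No HSP90 gene passed the test. Hsp90aa1, the heat-inducible cytosolic form, had 4658 and 4937 CPM in rosette_LIM, 4828 and 4503 in primed_4d and 5257 and 4589 in LIF_2i, and Hsp90ab1, the constitutive form, had 4368 and 4216 CPM in rosette_LIM, 4381 and 4359.5 in primed_4d and 4236 and 4159.8 in LIF_2i. For Hsp90aa1 all conditions overlapped; for Hsp90ab1 rosette_LIM overlapped both other conditions, and primed_4d lay just above LIF_2i. The 95% interval of the log2 fold change of primed_4d against LIF_2i ran from -0.13 to 0.25 for Hsp90ab1 and from -0.28 to 0.13 for Hsp90aa1. Hsp90b1 (GRP94), the form of the endoplasmic reticulum, had 435 and 449 CPM in rosette_LIM, 415 and 429.97 in primed_4d and 365 and 448 in LIF_2i. None of the 3 was called in any comparison by edgeR.

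The mitochondrial chaperonin was likewise not called. Hspd1 (HSP60) had 752 and 707 CPM in rosette_LIM, 654 and 718 in primed_4d and 784 and 768 in LIF_2i, and its lid Hspe1 (HSP10) had 1049.9 and 1086 CPM in rosette_LIM, 1234 and 1198 in primed_4d and 1299 and 1158 in LIF_2i. The 2 genes are neighbours that overlap on opposite strands. The largest estimate was -0.20 ± 0.10 for Hspe1 in rosette_LIM against LIF_2i (edgeR adjusted p = 0.279). Counting further chaperones of mitochondria from a list, 1 of 8 genes passed in primed_4d against LIF_2i and it was the iron-sulfur co-chaperone Hscb, which is no gene of the set. Of all genes tested, 37.9% were called in that comparison. Dnajc11, a partner of the inner membrane organizing complex, was lower in rosette_LIM than in primed_4d (47.6 and 42.7 CPM against 55.8 and 68.96 CPM; -0.46 ± 0.15, adjusted p = 0.025), a call lost without the R1 rosette_LIM, R1 primed_4d, R1 LIF_2i or IB10 LIF_2i library and with DESeq2, highest adjusted p = 0.296.

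J-domain proteins choose the clients of HSP70. Of 40 tested, 4 rose and 9 fell in primed_4d against LIF_2i, and 8 rose and 6 fell in rosette_LIM against primed_4d. These shares, 32.5% and 35%, lie near the 37.9% and 36.1% called over all genes. Among class A, Dnaja1, a general HSP40, had 397 and 393 CPM in rosette_LIM, 475 and 486 in primed_4d and 373 and 364 in LIF_2i. It was highest in both primed_4d libraries and rose against LIF_2i by 1.3-fold (0.38 ± 0.10, edgeR adjusted p = 0.00767; lost without the R1 LIF_2i or IB10 LIF_2i library, highest adjusted p = 0.144). Rosette_LIM against primed_4d gave -0.28 ± 0.10 for Dnaja1 (adjusted p = 0.0391) and -0.33 ± 0.10 for Dnaja2 (adjusted p = 0.0205). The Dnaja1 call was lost when any 1 of the 6 libraries was left out, without the line term, with DESeq2 and with no filter on low counts, and the Dnaja2 call was lost without the R1 rosette_LIM, R1 primed_4d, R1 LIF_2i or IB10 LIF_2i library and without the line term, highest adjusted p = 0.123.

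Among class B, Dnajb6, which keeps polyglutamine proteins from aggregating, had 353 and 347 CPM in rosette_LIM, 176 and 174 in primed_4d and 276 and 306 in LIF_2i. The primed_4d libraries were far below the rest and rosette_LIM was the highest pair. Dnajb6 fell by 1.66-fold in primed_4d against LIF_2i (log2 fold change -0.73 ± 0.11, edgeR adjusted p = 9.2e-05) and was 2.0-fold higher in rosette_LIM than in primed_4d (adjusted p = 5.86e-06), and both calls held in all 15 alternatives. Dnajb1, the heat-inducible HSP40, had 77.4 and 81.95 CPM in rosette_LIM, 53.9 and 59.4 in primed_4d and 69.1 and 85.1 in LIF_2i. It was lower in primed_4d than in LIF_2i (-0.44 ± 0.13, adjusted p = 0.0157), which was lost without the R1 primed_4d, IB10 primed_4d, R1 LIF_2i or IB10 LIF_2i library and with DESeq2, highest adjusted p = 0.265, and higher in rosette_LIM than in primed_4d (0.49 ± 0.13, adjusted p = 0.00922), which was lost without the IB10 rosette_LIM or R1 primed_4d library and with DESeq2, highest adjusted p = 0.0658.

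Dnajb4 and Dnajb5, close relatives of Dnajb1, went the other way at low levels. Dnajb4 had 3.51 and 4.51 CPM in rosette_LIM, 8.13 and 9.39 in primed_4d and 3.46 and 3.28 in LIF_2i, and Dnajb5 had 5.65 and 5.903 CPM in rosette_LIM, 10.4 and 10.7 in primed_4d and 4.096 and 4.43 in LIF_2i. Both were highest in the primed_4d libraries. The rise against LIF_2i was 1.37 ± 0.33 for Dnajb4 (edgeR adjusted p = 0.00495; lost without the R1 LIF_2i library and with DESeq2, highest adjusted p = 0.0996) and 1.30 ± 0.30 for Dnajb5 (adjusted p = 0.00301; lost without the IB10 LIF_2i library, highest adjusted p = 0.0541). Rosette_LIM against primed_4d gave -1.12 ± 0.34 for Dnajb4 (adjusted p = 0.0185; lost without the R1 rosette_LIM, IB10 rosette_LIM, R1 primed_4d or IB10 primed_4d library and with DESeq2, highest adjusted p = 0.137). The same contrast gave -0.87 ± 0.30 for Dnajb5 (adjusted p = 0.0338), lost when any 1 of the 6 libraries was left out and with DESeq2.

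The J-domain genes Dnajb13, Dnajc5g and Dnajb3 had calls on few molecules, and each shares its place with another gene. Dnajb13, a part of the radial spokes of sperm tails and cilia, had 50 UMIs in rosette_LIM, 2 in primed_4d and 50 in LIF_2i. The count ratio of rosette_LIM over primed_4d was 22.7 (exact 95% interval 5.96 to 192, counting error only), and LIF_2i exceeded primed_4d 17.1-fold (4.49 to 145); the edgeR call in primed_4d against LIF_2i was lost without the IB10 LIF_2i library, highest adjusted p = 0.0545. Ucp2 overlaps it on the opposite strand and was itself lower in primed_4d, with 237 and 212 CPM in rosette_LIM, 98.9 and 105 in primed_4d and 218 and 159.6 in LIF_2i. Dnajc5g had 4.48 and 5.21 CPM in rosette_LIM, 1.702 and 0.213 in primed_4d and 10.5 and 9.42 in LIF_2i, and fell in primed_4d against LIF_2i (edgeR adjusted p = 0.000101), which held in all 15 alternatives; Slc30a3 overlaps it (5.26 and 5.21 CPM in rosette_LIM, 2.27 and 3.63 in primed_4d and 7.94 and 3.28 in LIF_2i). Dnajb3, inside the Ugt1a genes, had 1.56 and 0.868 CPM in rosette_LIM, 4.54 and 4.91 in primed_4d and 1.15 and 1.28 in LIF_2i, and was higher in primed_4d than in LIF_2i (1.94 ± 0.49, adjusted p = 0.00569; lost without the R1 primed_4d, R1 LIF_2i or IB10 LIF_2i library and with DESeq2, highest adjusted p = 0.112). The part of the overlapping genes in these values was not tested.

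Of 26 class C genes tested, 0 rose and 6 fell in primed_4d against LIF_2i, so 23.1% were called, beside 18.3% of all genes tested called higher and 19.6% lower. Dnajc6 (auxilin), which recruits HSPA8 to strip clathrin from vesicles, had 69.6 and 65.6 CPM in rosette_LIM, 5.297 and 8.33 in primed_4d and 49.4 and 43.3 in LIF_2i. The 3 conditions did not overlap, rosette_LIM being highest. Dnajc6 fell 6.85-fold in primed_4d against LIF_2i (log2 fold change -2.78 ± 0.21, edgeR adjusted p = 1.48e-07) and was 9.99-fold higher in rosette_LIM than in primed_4d (adjusted p = 3.03e-08). Its rosette_LIM value exceeded LIF_2i by 0.54 ± 0.16 without passing (adjusted p = 0.0606). A UMI of Dnajc6 was found in 81.3 and 75.98% of rosette_LIM wells of at least 6000 UMIs, in 12.9 and 28.8% of primed_4d wells and in 82.6 and 73.1% of LIF_2i wells; well depth differed between libraries.

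Further class C genes fell by less. Dnajc21, a factor of 60S ribosome assembly, had 166 and 159 CPM in rosette_LIM, 97.04 and 91.2 in primed_4d and 123 and 129 in LIF_2i. It was higher in rosette_LIM than in primed_4d by 0.79 ± 0.12 (edgeR adjusted p = 0.000113) in all 15 alternatives, and lower in primed_4d than in LIF_2i (-0.42 ± 0.12, adjusted p = 0.0105; lost without the R1 primed_4d, R1 LIF_2i or IB10 LIF_2i library, highest adjusted p = 0.21). Dnajc7, which binds HSP70 and HSP90 through its repeats, had 161 and 185 CPM in rosette_LIM, 110.1 and 126 in primed_4d and 156 and 189 in LIF_2i. It fell in primed_4d against LIF_2i (-0.54 ± 0.11, adjusted p = 0.00135; lost without the R1 LIF_2i library, highest adjusted p = 0.0653) and was higher in rosette_LIM than in primed_4d (0.55 ± 0.11, adjusted p = 0.00142) in all 15 alternatives. Its neighbour Cnp, on the opposite strand, had 22.03 and 22.7 CPM in rosette_LIM, 9.84 and 11.5 in primed_4d and 24.1 and 24.4 in LIF_2i. Low-level Dnajc18 (-0.82 ± 0.23, adjusted p = 0.0103) and Dnajc4 (-0.70 ± 0.24, adjusted p = 0.032) also fell in primed_4d against LIF_2i; Dnajc18 was lost without the R1 primed_4d or R1 LIF_2i library and with DESeq2, highest adjusted p = 0.178 and Dnajc4 without the R1 primed_4d, IB10 primed_4d, R1 LIF_2i or IB10 LIF_2i library and with DESeq2, highest adjusted p = 0.285. Dnajc12, a partner of aromatic amino acid hydroxylases, was higher in rosette_LIM than in primed_4d (9.36 and 9.72 CPM against 4.35 and 2.99 CPM; adjusted p = 0.0092), lost without the R1 rosette_LIM or IB10 primed_4d library, highest adjusted p = 0.119.

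TRiC folds actin and tubulin, and of its 8 core subunits 2 rose and 0 fell in primed_4d against LIF_2i. Over all genes tested, 18.3% were called higher and 19.6% lower in this comparison. Cct2 had 576 and 738 CPM in rosette_LIM, 883 and 932 in primed_4d and 619 and 631 in LIF_2i, and Cct5 had 423 and 404 CPM in rosette_LIM, 473 and 538 in primed_4d and 403 and 408 in LIF_2i. Both were highest in the primed_4d libraries. Cct2 was 1.45-fold higher in primed_4d than in LIF_2i (log2 fold change 0.54 ± 0.11, edgeR adjusted p = 0.00116; lost without the R1 LIF_2i library, highest adjusted p = 0.0764), and lower in rosette_LIM than in primed_4d (-0.47 ± 0.11, adjusted p = 0.00306) in all 15 alternatives. Cct5 rose by 0.32 ± 0.10 in primed_4d against LIF_2i (adjusted p = 0.0281; lost without the R1 primed_4d, R1 LIF_2i or IB10 LIF_2i library and with DESeq2, highest adjusted p = 0.256) and rosette_LIM against primed_4d gave -0.29 ± 0.11 (adjusted p = 0.0456; lost without the R1 rosette_LIM, R1 primed_4d, R1 LIF_2i or IB10 LIF_2i library, without the line term and with DESeq2, highest adjusted p = 0.335).

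The other 6 subunits passed no threshold, with primed_4d minus LIF_2i estimates of 0.01 (Cct4), 0.10 (Cct3), 0.11 (Cct7), 0.13 (Cct8), 0.19 (Cct6a) and 0.22 (Tcp1), all above 0. For rosette_LIM minus primed_4d the estimates were -0.18 (Cct4), -0.23 (Cct3), -0.20 (Cct7), -0.17 (Cct8), -0.08 (Cct6a) and -0.25 (Tcp1), all below 0; the contrasts share the primed_4d libraries. In at least 1 alternative the first estimate was below 0 for Cct3, Cct4 and Tcp1, and the second above 0 for Cct6a and Tcp1. Cct6b, the testis form of the CCT6 subunit, had 2.92 and 3.47 CPM in rosette_LIM, 0.757 and 0.854 in primed_4d and 3.07 and 2.86 in LIF_2i. It was lower in primed_4d than in LIF_2i (-1.86 ± 0.56, edgeR adjusted p = 0.0168; lost without the R1 primed_4d, IB10 primed_4d, R1 LIF_2i or IB10 LIF_2i library and with DESeq2, highest adjusted p = 0.15). Rosette_LIM exceeded primed_4d by 1.97 ± 0.57 for Cct6b (adjusted p = 0.0143; lost without the R1 rosette_LIM, R1 primed_4d or IB10 primed_4d library and with DESeq2, highest adjusted p = 0.115). Of 5 prefoldin genes, which hand clients to TRiC, Pfdn4 rose and Pfdn1 and Pfdn5 fell in primed_4d against LIF_2i. The shares over all genes tested were 18.3% higher and 19.6% lower.

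The standard 20S core had few calls. Of its 15 alpha and constitutive beta genes, 2 passed in primed_4d against LIF_2i, both higher, 1 passed in rosette_LIM against primed_4d and 0 in rosette_LIM against LIF_2i. The shares called over all genes tested were 37.9%, 36.1% and 5.55% in the same order. Psmb5, the chymotrypsin-like catalytic subunit, had 313 and 336 CPM in rosette_LIM, 362 and 414 in primed_4d and 286 and 321 in LIF_2i, and was 1.28-fold higher in primed_4d than in LIF_2i (0.35 ± 0.10, edgeR adjusted p = 0.0131; lost without the R1 primed_4d, R1 LIF_2i or IB10 LIF_2i library, highest adjusted p = 0.172). Psma7 had 342 and 284 CPM in rosette_LIM, 392 and 320.03 in primed_4d and 309 and 259 in LIF_2i, with IB10 above R1 throughout (0.32 ± 0.10 for primed_4d against LIF_2i, adjusted p = 0.0214; lost without the R1 primed_4d, IB10 primed_4d, R1 LIF_2i or IB10 LIF_2i library and without the line term, highest adjusted p = 0.228). The other catalytic subunits passed no threshold: Psmb6, caspase-like, had 378 and 393 CPM in rosette_LIM, 384 and 387 in primed_4d and 372 and 347 in LIF_2i, and Psmb7, trypsin-like, had 376 and 511 CPM in rosette_LIM, 616 and 505 in primed_4d and 456 and 487 in LIF_2i. Psma3 varied little (394 and 409 CPM in rosette_LIM, 429 and 399 in primed_4d and 402 and 395 in LIF_2i). Psmb2 was higher in rosette_LIM than in primed_4d (180.1 and 176 CPM against 129 and 146 CPM; 0.37 ± 0.11, adjusted p = 0.0181), a call lost without the IB10 rosette_LIM, IB10 primed_4d, R1 LIF_2i or IB10 LIF_2i library and with DESeq2, highest adjusted p = 0.157. The abundant Psma2, Psma4, Psmb1 and Psmb4 and the J-domain genes Dnaja3 and Dnajc8 passed no threshold either, nor did the ATPase Psmc6. Psma8, a testis form of the alpha subunit PSMA7, had 11.1 and 13.5 CPM in rosette_LIM, 20.997 and 16.2 in primed_4d and 11.3 and 18.3 in LIF_2i.

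The inducible beta subunits, which replace the catalytic ones in the immunoproteasome, held the largest change among the 39 proteasome names tested in primed_4d against LIF_2i. Psmb10, the replacement of PSMB7 (chromosome 8, GRCm38 positions 105935735 to 105938444), had 13.1 and 13.5 CPM in rosette_LIM, 37.1 and 56.4 in primed_4d and 12.7 and 15.7 in LIF_2i. The primed_4d libraries did not overlap the others. Psmb10 rose 3.25-fold in primed_4d against LIF_2i (log2 fold change 1.70 ± 0.18, edgeR adjusted p = 4.79e-06), and rosette_LIM lay 3.47-fold below primed_4d (adjusted p = 5.2e-06), in all 15 alternatives. A UMI was found in 34.7 and 31.8% of rosette_LIM wells of at least 6000 UMIs, 57.6 and 82.7% of primed_4d wells and 41.8 and 45% of LIF_2i wells.

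Psmb8, the replacement of PSMB5, had 0 UMIs in the rosette_LIM libraries, 7 and 12 in primed_4d, and 0 and 1 in LIF_2i. It did not pass the filter on low counts; the count ratio of primed_4d over LIF_2i was 27.8 (exact 95% interval 4.42 to 1150, counting error only), and rosette_LIM was at least 6.98-fold lower than primed_4d, taking 3 counts over the group as the floor. With all genes kept, Psmb8 was higher in primed_4d than in LIF_2i (edgeR adjusted p = 0.00744) and lower in rosette_LIM than in primed_4d (adjusted p = 0.00458). Psmb9, the replacement of PSMB6, had 0.975 and 1.74 CPM in rosette_LIM, 3.97 and 2.35 in primed_4d and 1.15 and 1.71 in LIF_2i, with 1.16 ± 0.54 for primed_4d against LIF_2i (adjusted p = 0.103). Psmb9 lies head to head with Tap1, a peptide transporter of antigen presentation, which had 2.14 and 1.74 CPM in rosette_LIM, 8.89 and 10.03 in primed_4d and 1.54 and 4.28 in LIF_2i; the 2 genes overlap on opposite strands. Psmb11, the thymus form, had 11.7 and 11.8 CPM in rosette_LIM, 12.7 and 12.2 in primed_4d and 10.4 and 14.6 in LIF_2i. Over the 6 libraries the profile of log2(CPM + 5) most like that of Psmb8 was that of Psmb10 (Pearson 0.99, a description over 6 libraries that share conditions), followed by Cct5 (0.99) and Hspb9 (0.96). Hspb9 had 2 UMIs in all libraries together, both in primed_4d.

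Genes tied to the same function outside the set moved in part. Psme2, a subunit of the PA28 activator, had 41.1 and 44.97 CPM in rosette_LIM, 83.6 and 92.7 in primed_4d and 43.9 and 44.4 in LIF_2i, and rose in primed_4d against LIF_2i (0.99 ± 0.13, edgeR adjusted p = 3.28e-05). Its partner Psme1 had 60.4 and 58.3 CPM in rosette_LIM, 45.4 and 66.2 in primed_4d and 51.5 and 49.8 in LIF_2i and did not pass. Of 8 interferon-type and MHC class I genes tested, Tap1, H2-K1, Irf1 and H2-D1 rose and Irf9 and Tapbp fell in primed_4d against LIF_2i. Over all genes tested, 18.3% were called higher and 19.6% lower there. H2-K1 had 32.4 and 31.8 CPM in rosette_LIM, 100.1 and 101 in primed_4d and 23.4 and 37.7 in LIF_2i, whereas B2m, the shared light chain, had 16.2 and 28.995 CPM in rosette_LIM, 18.2 and 24.3 in primed_4d and 21.4 and 22.7 in LIF_2i. Of 16 activators, assembly factors and regulators, Psme2, Psmg3 and Psmg2 rose and Nfe2l2 fell in the same comparison. That is 25% of the list, beside 37.9% of all genes tested. Nfe2l1, which drives proteasome genes when proteasome activity is short, passed no threshold (112 and 128 CPM in rosette_LIM, 104 and 92.9 in primed_4d and 103 and 89.9 in LIF_2i).

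Of the 6 ATPases and 14 other genes of the 19S cap, 4 fell and 0 rose in primed_4d against LIF_2i, beside 19.6% of all genes tested called lower and 18.3% higher. In rosette_LIM against primed_4d 2 rose and 1 fell, beside 19% of all genes tested called higher and 17.2% lower. Psmd3, a lid subunit, had 182 and 215 CPM in rosette_LIM, 150.01 and 158 in primed_4d and 222 and 243 in LIF_2i. The 3 conditions did not overlap, and the fall of 1.51-fold in primed_4d against LIF_2i (-0.59 ± 0.11, edgeR adjusted p = 0.000618) held in all 15 alternatives; rosette_LIM exceeded primed_4d by 0.36 ± 0.11 (adjusted p = 0.0189; lost without the R1 rosette_LIM, R1 primed_4d, R1 LIF_2i or IB10 LIF_2i library and with DESeq2, highest adjusted p = 0.135). The scaffold subunits Psmd1 (-0.31 ± 0.11, adjusted p = 0.0322) and Psmd2 (-0.34 ± 0.12, adjusted p = 0.0427) fell by less in primed_4d against LIF_2i. Psmd1 was lost without the R1 primed_4d, R1 LIF_2i or IB10 LIF_2i library, without the line term and with DESeq2, highest adjusted p = 0.259, and Psmd2 was lost without the IB10 primed_4d, R1 LIF_2i or IB10 LIF_2i library, without the line term, with DESeq2 and with median-of-ratios size factors, highest adjusted p = 0.524.

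The ATPase Psmc2 had 256 and 272 CPM in rosette_LIM, 199 and 216 in primed_4d and 252 and 256 in LIF_2i. It was lower in primed_4d than in LIF_2i (-0.29 ± 0.11, edgeR adjusted p = 0.0407; lost without the R1 primed_4d, IB10 primed_4d, R1 LIF_2i or IB10 LIF_2i library, without the line term and with DESeq2, highest adjusted p = 0.317) and higher in rosette_LIM than in primed_4d (0.34 ± 0.11, adjusted p = 0.0197), a call lost when any 1 of the 6 libraries was left out and with DESeq2. Psmc3 (281 and 275 CPM in rosette_LIM, 236 and 255 in primed_4d, 265 and 240.4 in LIF_2i) and Psmd14, the deubiquitinase of the lid (193 and 225 CPM in rosette_LIM, 221 and 215 in primed_4d and 212 and 191 in LIF_2i), passed no threshold. The assembly chaperone Psmd9 was lower in rosette_LIM than in primed_4d (13.8 and 17.5 CPM against 18.3 and 27.1 CPM; adjusted p = 0.0495), but this held in 3 of 15 alternatives and in 0 of the 6 without a library.

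Intervals show how much change each comparison could hold. In rosette_LIM against LIF_2i, the 95% interval of the fold change stayed inside 1.5-fold for 78 of the 112 genes (69.6%), beside 41.2% of all genes tested. Among genes of at least 100 CPM it did so for 59 of 60 (98.3%), beside 86.4% of all such genes. In primed_4d against LIF_2i the interval stayed inside 1.5-fold for 50 of the 60 (83.3%), beside 64.3%, and in rosette_LIM against primed_4d for 49 of the 60 (81.7%), beside 60%. Changes of at least 2-fold were called at 13 genes (11.6%) in primed_4d against LIF_2i, beside 19.3% of all genes tested. Of the 13, 12 averaged under 100 CPM, the exception being Hspb1. Over all genes tested, 2202 of the 2329 genes with such a call averaged under 100 CPM.

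Heat-inducible chaperones moved in both directions. Of the 10 listed (Hspa1a, Hspa1b, Hspb1, Hsph1, Hsp90aa1, Dnajb1, Dnaja1, Hspa8, Hspd1 and Hspe1), 2 rose (Hspa1a and Dnaja1) and 4 fell (Hspb1, Dnajb1, Hsph1 and Hspa8) in primed_4d against LIF_2i, beside 18.3% of all genes tested called higher and 19.6% lower, with a median of -0.13. Their sum was 13256 and 13083 CPM in rosette_LIM, 11558 and 10794 in primed_4d and 13858 and 13096 in LIF_2i. The heat shock factor Hsf1 had 30.999 and 28.8 CPM in rosette_LIM, 38.97 and 41.6 in primed_4d and 32.4 and 37.8 in LIF_2i, and was lower in rosette_LIM than in primed_4d (-0.43 ± 0.16, edgeR adjusted p = 0.0499). Of 24 co-chaperones and heat shock factors, Serpinh1, a collagen chaperone, and Grpel2 rose and Bag3 fell in primed_4d against LIF_2i. Of 11 dissociation-response genes tested, 6 rose (Egr1, Jun, Junb, Jund, Atf3 and Dusp1) and Nr4a1 fell in the same comparison; the list summed to 304 and 426 CPM in rosette_LIM, 439.6 and 618 in primed_4d and 281 and 338 in LIF_2i. Its part in the values of heat-inducible genes was not tested.

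Among 8 chaperones of the endoplasmic reticulum, Hspa5 alone passed in primed_4d against LIF_2i and 0 passed in the other condition comparisons by edgeR. Over all genes tested, 37.9% were called in the first, 5.55% in rosette_LIM against LIF_2i and 36.1% in rosette_LIM against primed_4d. Dnajb9 had 13.6 and 12.7 CPM in rosette_LIM, 13.8 and 11.3 in primed_4d and 9.86 and 8.28 in LIF_2i, with 0.54 ± 0.23 for rosette_LIM against LIF_2i (adjusted p = 0.209) and 0.47 ± 0.23 for primed_4d against LIF_2i (adjusted p = 0.13). Dnajb11 (64.1 and 64.1 CPM in rosette_LIM, 61.7 and 73.2 in primed_4d and 60.5 and 65.8 in LIF_2i) and Dnajc3 (44.3 and 52.1 CPM in rosette_LIM, 35.4 and 45.3 in primed_4d and 39.4 and 42.97 in LIF_2i) passed no threshold. Outside the set, the unfolded protein response genes Xbp1 and Manf rose in rosette_LIM against LIF_2i, and Ddit3, Herpud1 and Manf rose in primed_4d against LIF_2i, out of 15 tested. These are 13.3% and 20% of that list, beside 5.55% and 37.9% of all genes tested. The ER stress element (CCAAT, then 9 bases, then CCACG), known from promoters induced by stress of the endoplasmic reticulum, was found on either strand in 3 of 7 such chaperones with a window (Hspa5, Hsp90b1 and Dnajc3), beside 0.137% of all genes of the table. The window of Hspa5 (chr2:34771840-34772139, plus strand) and that of Hsp90b1 (chr10:86705395-86705694, minus strand) are given with it in capitals; in Hsp90b1 the second match is on the other strand.
Hspa5: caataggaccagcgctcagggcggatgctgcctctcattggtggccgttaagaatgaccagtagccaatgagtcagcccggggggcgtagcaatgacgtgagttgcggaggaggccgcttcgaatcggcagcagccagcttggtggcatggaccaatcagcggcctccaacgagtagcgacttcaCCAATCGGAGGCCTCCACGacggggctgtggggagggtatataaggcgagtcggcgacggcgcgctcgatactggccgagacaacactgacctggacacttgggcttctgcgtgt
Hsp90b1: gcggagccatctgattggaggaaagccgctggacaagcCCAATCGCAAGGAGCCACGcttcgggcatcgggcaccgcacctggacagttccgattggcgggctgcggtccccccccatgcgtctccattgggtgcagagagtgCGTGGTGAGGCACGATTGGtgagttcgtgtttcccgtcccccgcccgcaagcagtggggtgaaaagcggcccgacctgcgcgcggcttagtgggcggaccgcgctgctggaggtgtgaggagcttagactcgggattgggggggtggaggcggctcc

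Between lines, IB10 and R1 differed at 0 of the 112 genes by edgeR (0.752% of all genes tested were called, 0.24% higher and 0.512% lower), and at 0 with DESeq2 or limma. An unadjusted p under 0.05 was found at 7 of them, and the share of all genes at that threshold was not counted. For 60 of the 60 genes of at least 100 CPM the 95% interval stayed inside 1.5-fold, beside 96.1% of all such genes. The 4 tested genes on chromosome 8 had IB10 minus R1 log2 fold changes of -0.36 ± 0.16 (Psmb10), -0.28 ± 0.08 (Dnaja2), -0.23 ± 0.08 (Psmd7) and -0.18 ± 0.11 (Dnajb1). Their median was -0.25, beside -0.31 over the 664 genes tested on chromosome 8. On the other chromosomes the median of all genes ranged between -0.03 and 0.09. Psmb10 was lower in IB10 than in R1 in all 3 conditions, and its rise in primed_4d was seen in both lines.

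**Figure D5:**
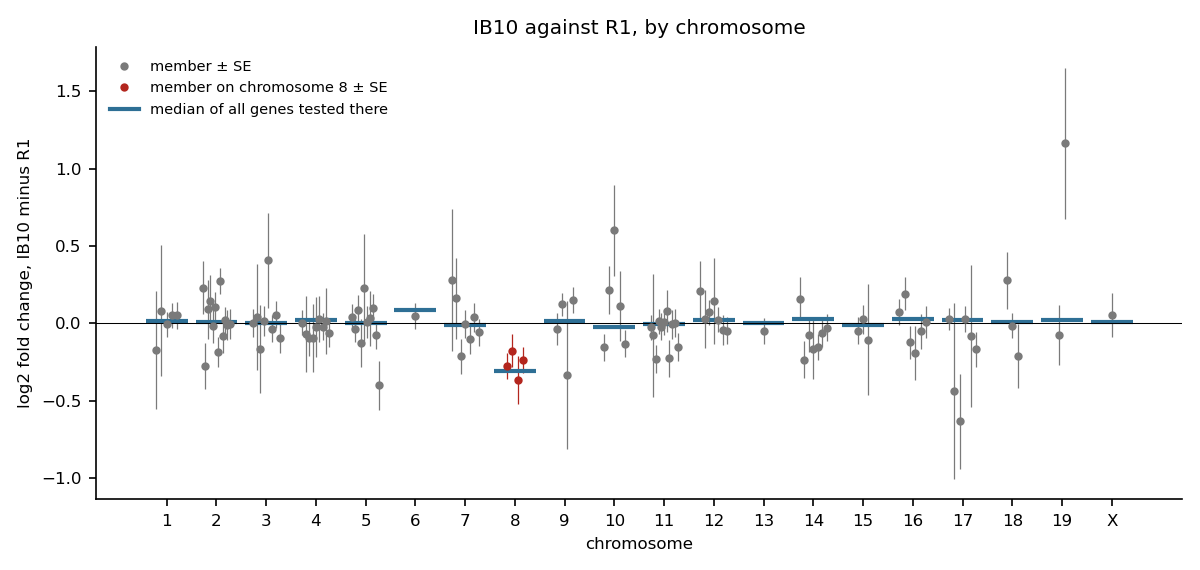
IB10 minus R1 log2 fold change (y axis) of each tested gene by chromosome (x axis), as points ± SE from edgeR; blue bars are the median of all genes tested on that chromosome. The 4 red points on chromosome 8 have a median of -0.25, near the chromosome's -0.31.

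The other 9 genes under the filter were Dnaja4, Dnajb7, Dnajc28, Dnajc5b, Hspa12b, Hspa1l, Hspb3, Hspb7 and Hspb9. Dnajc28 reached 1.36 and 1.39 CPM in rosette_LIM, 1.32 and 1.49 in primed_4d and 0.896 and 0.857 in LIF_2i, and Dnaja4 0.7798 and 1.56 CPM in rosette_LIM, 0.757 and 0.427 in primed_4d and 1.15 and 1.14 in LIF_2i. Hspa1l had 3 UMIs, all in IB10 primed_4d, and Hspb3 and Dnajb7 had 1 each in all libraries together. Hspb9 had 2, both in primed_4d. Each gene allows a level of up to 3 counts in a library where it had 0.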

How the data were processed

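The authors deposited 1 table of expected counts per gene and well, made from SORT-seq reads with BWA on mm10 (GRCm38), per the submitters' processing notes, which give no versions. Its 1297 distinct values all equal, within 0.0051, a UMI count corrected for collisions among 4096 UMIs. Wells are named by library and number, so libraries share no barcode. No well was removed and no doublet caller was run. Each library's 188 wells were added up gene by gene, without the 91 ERCC rows, and rounded. edgeR 4.0.16 (R 4.3.3; quasi-likelihood test, two-sided, TMM factors, minimum count 10) was fitted to all 6 libraries with condition and cell line, and p-values were adjusted by Benjamini-Hochberg over 12098 genes at 0.05. All adjusted p-values are from this fit unless another tool is named. SE is the log2 fold change divided by the root of F. The line term pairs libraries of the same cell line, and IB10 minus R1 deviations correlated between conditions at 0.143, 0.187 and 0.0844. With 2 libraries a group, an exact permutation test cannot go below 0.333, and nothing says that libraries came from separate cultures, so the p-values reflect only how far these libraries differ, which may be technical. Alternatives used DESeq2 1.42.0, limma 3.58.1, other scalings, no filter, no line term, other well filters and each library left out, where a lone library is assumed to vary like the others. Scripts were tested on simulated data. Named genes are those past the threshold (up to 10 a direction), a list of well-known genes given whether called or not and the 3 most abundant of each role; other genes are named for context. Members and lists were chosen with earlier results of these data known. Positions are from GRCm38 and promoters from RefSeq GRCm38.p6. Exact intervals of count ratios and floors cover counting error only, while intervals of fold changes are from the edgeR fit. Python 3.11.15, pandas 2.3.3, scipy 1.17.1 and matplotlib 3.10.9 were used.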

Additional observations from a re-analysis of the deposited data

Results flagged for a closer look

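Hspa1b, a stress-inducible HSP70, had opposite signs in the lines. Its log2 ratio of primed_4d over LIF_2i was -0.69 in IB10 and 1.13 in R1, with 25 and 73 UMIs in primed_4d and 62 and 48 UMIs in LIF_2i. In primed_4d the well with most Hspa1b UMIs held 20% of those of IB10 and 26.03% of those of R1. The difference between the lines was not tested. Hspa1b shares nearly all of its sequence with Hspa1a.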

How the results depend on the processing

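Of the 251 fold changes of named genes, 58 were called, and 0 of those changed sign under any of the 15 alternatives; 93 without a call did in at least 1, in all 191 times, and 0 of these were called in the alternative. In rosette_LIM against LIF_2i, 0 genes were higher, against 1 with no filter on low counts, 1 with wells of at least 6000 UMIs and 0 to 2 with a library left out; 1 was lower, against 0 without the replicate block, 0 with DESeq2, 2 with no filter and 0 to 2 with a library left out. In primed_4d against LIF_2i, the 14 higher became 7 with DESeq2 and 3 to 17 with a library left out, and the 19 lower became 11 and 9 to 22; the lowest totals, 12 and 13, came without the R1 and without the IB10 LIF_2i library. Without the replicate block 11 were higher and 16 lower. In rosette_LIM against primed_4d, the 18 higher became 12 to 15 with a library left out, and the 11 lower became 7 without the replicate block, 4 with DESeq2 and 6 to 11 with a library left out. Of the 33 calls in primed_4d against LIF_2i, 8 were kept in all alternatives, of the 29 in rosette_LIM against primed_4d 10, and of the 1 in rosette_LIM against LIF_2i 0. IB10 against R1 stayed at 0 in every alternative run; the fit without the line term gives no value there. The cause of these shifts was not tested. Scaling by plain totals moved the median of all genes by at most 0.03 on the log2 scale. Genes under the filter on low counts were tested only with all genes kept.

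Over the 6 fits without 1 library, these log2 fold changes in rosette_LIM against LIF_2i ran from -0.095 to 0.20 at Cct2, -0.068 to 0.11 at Cct5, -0.11 to 0.013 at Cct8, -0.099 to 0.089 at Dnaja3, -0.042 to 0.14 at Dnajb1, -0.080 to 0.11 at Dnajb11, -0.038 to 0.042 at Dnajc7, -0.15 to 0.071 at Hsp90aa1, -0.63 to 2.02 at Hspa1a, -0.79 to 0.56 at Hspa1b, -0.40 to 0.29 at Hspa2, -0.11 to 0.015 at Hspa8, -0.037 to 0.064 at Hspa9, -0.038 to 0.31 at Hspb1, -0.28 to 0.15 at Hspbap1, -0.049 to 0.060 at Psma3, -0.31 to 0.13 at Psmb10, -0.32 to 0.18 at Psmb11, -0.21 to 0.022 at Psmb4, -0.38 to 0.15 at Psmb7, -0.62 to 0.36 at Psmb9, -0.25 to 0.20 at Psmc3ip, -0.11 to 0.20 at Psmd14, -0.23 to 0.10 at Psmd2, -0.017 to 0.025 at Psmd7 and -0.31 to 0.23 at Tcp1. In primed_4d against LIF_2i, the values without 1 library ran from -0.071 to 0.26 at Cct3, -0.043 to 0.062 at Cct4, -0.031 to 0.23 at Dnaja3, -0.0037 to 0.18 at Dnajb11, -0.16 to 0.100 at Dnajc2, -0.13 to 0.049 at Dnajc3, -0.17 to 0.012 at Hsp90aa1, -0.068 to 0.18 at Hsp90b1, -0.59 to 1.01 at Hspa1b, -0.098 to 0.065 at Hspe1, -0.0068 to 0.12 at Psma2, -0.0042 to 0.11 at Psma3, -0.051 to 0.083 at Psma4, -0.25 to 0.27 at Psmb11, -0.055 to 0.065 at Psmb4, -0.034 to 0.52 at Psmb7, -0.14 to 0.059 at Psmc3, -0.0038 to 0.23 at Psmd14 and -0.040 to 0.47 at Tcp1. For rosette_LIM against primed_4d they ran from -0.17 to 0.0007 at Cct6a, -0.23 to 0.028 at Dnaja3, -0.17 to 0.030 at Dnajb11, -0.0013 to 0.14 at Dnajb9, -0.047 to 0.096 at Dnajc8, -0.069 to 0.14 at Hsp90aa1, -0.011 to 0.14 at Hsp90b1, -1.08 to 0.52 at Hspa1b, -0.27 to 0.13 at Hspa5, -0.38 to 0.0028 at Hspbp1, -0.0089 to 0.19 at Hspd1, -0.10 to 0.014 at Psma3, -0.0081 to 0.14 at Psmb1, -0.25 to 0.078 at Psmb11, -0.21 to 0.015 at Psmb4, -0.043 to 0.039 at Psmb6, -0.031 to 0.16 at Psmc6, -0.21 to 0.083 at Psmd14 and -0.53 to 0.018 at Tcp1. With 1 library left out, IB10 against R1 gave from -0.071 to 0.11 at Cct3, -0.062 to 0.0060 at Cct4, -0.10 to 0.026 at Cct5, -0.013 to 0.10 at Cct6a, -0.0085 to 0.028 at Dnaja1, -0.066 to 0.028 at Dnajb6, -0.054 to 0.035 at Dnajc8, -1.18 to 0.58 at Hspa1a, -0.057 to 0.38 at Hspa2, -0.017 to 0.066 at Hspa4, -0.044 to 0.014 at Hspa9, -0.16 to 0.14 at Hspb1, -0.11 to 0.16 at Hspb11, -0.23 to 0.15 at Hspb8, -0.14 to 0.11 at Hspbap1, -0.050 to 0.062 at Hspd1, -0.0025 to 0.11 at Hspe1, -0.011 to 0.066 at Psma3, -0.0043 to 0.087 at Psmb1, -0.27 to 0.026 at Psmb11, -0.031 to 0.048 at Psmb6, -0.26 to 0.098 at Psmb7, -0.67 to 0.17 at Psmb9, -0.039 to 0.089 at Psmc3, -0.077 to 0.19 at Psmc3ip, -0.011 to 0.12 at Psmd1, -0.087 to 0.097 at Psmd14, -0.097 to 0.15 at Psmd2 and -0.34 to 0.0027 at Tcp1. Scaling by plain library totals turned the sign to -0.0097 at Hspa9, -0.0071 at Dnajb11, -0.018 at Psma3, -0.024 at Dnajc7 and -0.021 at Psmd7 in rosette_LIM against LIF_2i, -0.0017 at Cct4, -0.0088 at Psmb4 and -0.0049 at Psmb11 in primed_4d against LIF_2i, -0.013 at Psmb6 in rosette_LIM against primed_4d, and -0.0030 at Dnaja1, -0.0080 at Cct3 and -0.0002 at Psmd2 in IB10 against R1. No filter on low counts turned the sign to -0.0037 at Psma3, -0.010 at Dnajc7 and -0.0073 at Psmd7 in rosette_LIM against LIF_2i, and -0.010 at Cct4, -0.0043 at Psma4, -0.018 at Psmb4 and -0.013 at Psmb11 in primed_4d against LIF_2i. Wells of at least 6000 UMIs turned the sign to -0.0016 at Psmb6 in rosette_LIM against primed_4d, and -0.0036 at Cct3 and -0.0089 at Hspb11 in IB10 against R1. Leaving out wells over 10 times the median turned the sign to 0.0017 at Dnaja3 in rosette_LIM against LIF_2i, and -0.0070 at Dnaja1 in IB10 against R1. DESeq2 turned the sign to 0.0002 at Hspe1 in primed_4d against LIF_2i, and -0.013 at Psmb6 in rosette_LIM against primed_4d. Median-of-ratios size factors turned the sign to 0.0002 at Hspe1 in primed_4d against LIF_2i, and -0.013 at Psmb6 in rosette_LIM against primed_4d. Limma on log2(CPM + 5) turned the sign to -0.0002 at Cct3 and -0.0007 at Hspb8 in IB10 against R1. Limma on log2(CPM + 1) turned the sign to -0.0001 at Cct3 and -0.036 at Hspb8 in IB10 against R1. The fit without the replicate block turned the sign to -0.0003 at Psmb11 in primed_4d against LIF_2i.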
